A study of Mus musculus with 12 samples.

Results

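The genes described here are 2 BMP ligands (Bmp4 and Bmp7), 2 inhibitors of BMP signalling (Smad6 and Bambi) and the 4 Id genes, which are classical transcriptional targets of BMP signals. They were taken as every non-control probe whose RefSeq accession maps to one of these 8 symbols, which gave 9 of the 55681 probes on the array. Bmp4 has 2 of those probes and each other gene has 1. Of the 8 genes, 7 passed the filter on dim probes and were tested, and Bambi did not. To pass, a probe had to be well above background on every array of some group.

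Gene expression in mouse embryonic stem cells was measured on 12 single-colour arrays, 3 in each of 4 groups. Wild-type cells and Nat1-null cells were each grown either with LIF alone or with 2i+LIF. LIF is the cytokine that keeps mouse stem cells self-renewing through STAT3, while 2i stands for 2 small molecules that inhibit the kinases MEK and GSK3. All groups therefore received LIF, and all were cultured on gelatin with no separate feeder layer named in the labels. Nat1 was read here, from knowledge of the gene and not from the labels, as another name of Eif4g2, which encodes a translation initiation factor related to eIF4G, and not the N-acetyltransferase gene that shares the symbol. The way the null allele was made and the number of clones are not given in the sources used here, and neither is the relation of the 3 arrays of a group to separate cultures. The p-values then measure only the spread between these samples, which may be technical.

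BMP ligands bind pairs of type I and type II serine/threonine kinase receptors, which phosphorylate SMAD1 and SMAD5. These enter the nucleus with SMAD4 and switch on targets that include the Id genes and the inhibitory Smad6 and Smad7. Id proteins lack a DNA-binding region and hold basic helix-loop-helix factors away from DNA, and in mouse embryonic stem cells cultured with LIF and BMP they are known for holding back neural differentiation.

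Promoter sequences are printed for 3 of the 4 Id genes, as members of one gene family. A relation between these letters and the expression values below was not tested. RefSeq promoters (build GRCm38.p6) matched 5 of the 8 genes, namely Id2, Id3, Id4, Bmp4 and Smad6. Both strands of the 250 bases before the annotated start were searched for GGCGCC (a GC-rich SMAD1/5 site), CAGAC (the short SMAD-binding element), GTCTAGAC (its palindromic form), CTTTGA (a TCF/LEF site), TTCNNNGAA (a STAT site) and TATAAA. No letters of one motif contain another. The 3 promoters with any match are printed 5′ to 3′ on the strand of the gene, with capitals marking the matched letters. They are Id2 (chr12:25096093-25096342, minus strand), Id3 (chr4:136143572-136143821, plus strand) and Id4 (chr13:48260866-48261115, plus strand).
Id2: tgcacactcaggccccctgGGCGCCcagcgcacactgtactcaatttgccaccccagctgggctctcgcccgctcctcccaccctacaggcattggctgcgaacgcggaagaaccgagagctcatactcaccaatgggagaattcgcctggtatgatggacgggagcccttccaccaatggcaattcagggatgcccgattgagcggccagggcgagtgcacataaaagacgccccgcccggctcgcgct
Id3: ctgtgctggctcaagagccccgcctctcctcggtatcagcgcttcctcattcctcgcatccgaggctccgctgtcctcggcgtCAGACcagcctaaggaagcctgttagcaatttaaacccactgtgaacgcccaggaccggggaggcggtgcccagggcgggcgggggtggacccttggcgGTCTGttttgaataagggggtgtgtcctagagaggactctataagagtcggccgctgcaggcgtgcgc
Id4: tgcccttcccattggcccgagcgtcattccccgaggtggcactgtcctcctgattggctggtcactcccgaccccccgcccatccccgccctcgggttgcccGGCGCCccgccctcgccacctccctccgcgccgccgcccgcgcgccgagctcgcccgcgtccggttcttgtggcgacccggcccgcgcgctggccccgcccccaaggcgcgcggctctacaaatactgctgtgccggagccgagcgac
Id2 and Id4 each held 1 GGCGCC, beginning 231 and 148 bases before the start. This motif was present in 9.59% of 32851 promoter windows of the same length. Id3 held CAGAC on the plus strand 167 bases before the start and on the minus strand (printed as GTCTG) 68 bases before it, a motif present in 42.2% of windows. The windows of Bmp4 and Smad6 held none of the 6 motifs, of which the other 4 were present in 0.167% (GTCTAGAC), 13.8% (CTTTGA), 7.02% (TTCNNNGAA) and 12.4% (TATAAA) of windows. A match is a description of these letters, and binding was not measured.

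With Nat1 read in this way, Eif4g2 was at a log2 level of 4.49 ± 0.05 (SD, n = 3) in wild-type cells in LIF and 4.20 ± 0.10 in 2i+LIF, against 1.28 ± 0.04 and 1.31 ± 0.10 in Nat1-null cells, a fall of 9.28-fold without 2i and of 7.42-fold with it. Its probe stayed above background on the Nat1-null arrays, and where that probe lies relative to the null allele is not given in the sources used here. The share of spots well above background ran from 49.8% to 66.3% of 59305 spots per array, and the number of arrays limits the precision. The 12 stem cell markers checked were above background on every array. The 3 wild-type LIF arrays shared 1 slide, the 3 wild-type 2i+LIF arrays another, and all Nat1-null arrays a slide of their own, so for each genotype comparison and for 2i in wild-type cells slide and group cannot be told apart. Only 2i in Nat1-null cells was compared within 1 slide, and there 2 of the LIF arrays lay in another row than the remaining 4 arrays. Nat1-null replicates varied more, with SDs of pairwise log2 differences between 0.493 and 0.588 against 0.255 to 0.316 in wild-type cells. Replicate 2 of both Nat1-null groups stood apart from the others of its group for several of the genes below.

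Levels below are log2 signals with each array's 75th percentile set to 0, so 0 is a fairly bright gene, and differences are log2 differences between group means with the standard error (SE) of the limma fit. Levels of different probes are not compared.

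Bmp4, a ligand that sustains self-renewal together with LIF in defined medium, was higher in Nat1-null cells in both media. Its level in wild-type cells was 2.16, 2.07 and 2.11 in LIF and 1.96, 2.13 and 2.08 in 2i+LIF. In Nat1-null cells it was 4.44, 3.82 and 4.37 in LIF and 3.80, 3.19 and 3.72 in 2i+LIF. Every Nat1-null array lay above every wild-type array, and the wild-type media overlapped. The level rose with loss of Nat1 by 2.09 in LIF (SE 0.18, adjusted p = 4.44e-06, a 4.27-fold difference) and by 1.52 in 2i+LIF (adjusted p = 1.29e-04, 2.86-fold). In wild-type cells the 2i difference was -0.06, with a 95% interval from -0.47 to 0.35. In Nat1-null cells Bmp4 fell by 0.64 with 2i (adjusted p = 0.022), although the highest 2i+LIF array (3.80) and the lowest LIF array (3.82) lay next to each other. That call was lost when Nat1-null LIF replicate 1 (difference -0.52, adjusted p = 0.079) or 3 (-0.56, adjusted p = 0.071) was left out, and also without the second array of the 2i+LIF group (-0.45, adjusted p = 0.065). It was further lost in a fit of those groups alone (adjusted p = 0.12) and with the row of the slide as a term (-0.80, adjusted p = 0.052). The second Bmp4 probe was well above background on 1 of the 12 arrays, Nat1-null 2i+LIF replicate 3, where its level was -2.92 against -7.50 to -5.91 on the rest, and it was not tested.

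Bmp7, a ligand of the other major BMP subgroup, was higher in 2i+LIF in both genotypes. In wild-type cells its level was -0.07, -0.12 and -0.15 in LIF and 2.13, 1.96 and 2.07 in 2i+LIF. The Nat1-null levels were -1.08, -0.26 and -1.29 in LIF and 1.37, 1.78 and 1.41 in 2i+LIF. In each genotype every 2i+LIF array lay well above every LIF array. The rise with 2i was 2.16 in wild-type cells (SE 0.23, adjusted p = 2.19e-05, 4.48-fold) and 2.40 in Nat1-null cells (adjusted p = 3.77e-05, 5.26-fold). The latter exceeded in size the difference of 99.0% of the 24771 genes tested. With loss of Nat1, Bmp7 fell by 0.77 in LIF (adjusted p = 0.013), and the groups did not overlap. In 2i+LIF the genotype difference of -0.53 missed the threshold (adjusted p = 0.084, 95% interval -1.04 to -0.03), although these groups did not overlap either. It passed when Nat1-null LIF replicate 2 (adjusted p = 0.0038) or 3 (adjusted p = 0.049) was left out, which enter this comparison only through the estimate of the spread.

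Smad6, an inhibitory SMAD that competes for type I receptors and SMAD1 and is itself induced by BMP, was higher with 2i and higher with loss of Nat1. Wild-type levels were -1.83, -1.91 and -2.02 in LIF and -1.49, -1.48 and -1.38 in 2i+LIF. Nat1-null levels were -0.28, 0.07 and -0.48 in LIF, and 0.52 and 0.56 in 2i+LIF on replicates 2 and 3. The spot on replicate 1 was marked as non-uniform by the scanner program (9404 signal units, a level of 3.67) and was left out, so that group has n = 2. The 4 groups did not overlap. Smad6 rose with loss of Nat1 by 1.69 in LIF (SE 0.12, adjusted p = 2.96e-06, 3.22-fold) and by 1.99 in 2i+LIF (SE 0.14, adjusted p = 9.24e-06, 3.96-fold). The rise with 2i was 0.47 in wild-type cells (adjusted p = 0.0096) and 0.77 in Nat1-null cells (adjusted p = 0.0028). With the marked spot kept, as in the authors' deposited series table, the differences were 0.47 for 2i in wild-type cells (adjusted p = 0.57), 1.68 for loss of Nat1 in LIF (adjusted p = 0.052) and 1.80 for 2i in Nat1-null cells (adjusted p = 0.066), none of which passed. The marked spot enters the first 2 of these comparisons only through the estimate of the spread. Loss of Nat1 in 2i+LIF still passed with that spot, and its difference moved to 3.01 (adjusted p = 0.0056).

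Bambi encodes a pseudoreceptor without kinase activity that blocks BMP and TGF-beta receptors. Its probe was well above background on 1 of 12 arrays, wild-type LIF replicate 1, at a level of -4.28. The other 11 arrays lay between -7.52 and -5.97, where values have no reliable order. In a fit without the filter on dim probes its adjusted p-values ran from 0.17 to 0.51 over the 5 comparisons, so no difference was detectable at this signal.

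**Figure D1:**
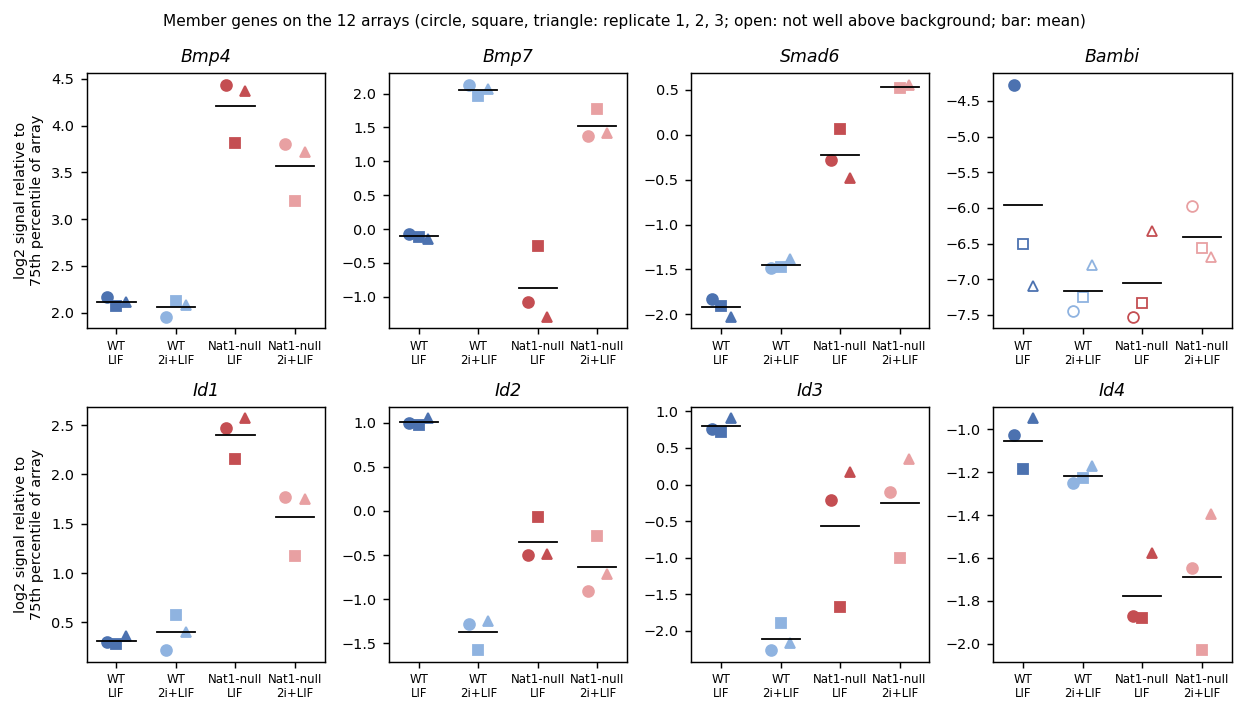
Level of each of the 8 genes on every array (vertical axis, log2 signal with each array's 75th percentile at 0, with its own range in each panel), by genotype and medium (horizontal axis). Circles, squares and triangles are replicates 1, 2 and 3, open symbols are spots not well above background and bars are group means; Bmp4 and Id1 stand high in both Nat1-null groups, Bmp7 in both 2i+LIF groups, and Id2 and Id3 in wild-type cells in LIF.

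Id1, the Id gene most used as a readout of BMP signalling in these cells, was higher in Nat1-null cells, as Bmp4 was. In wild-type cells it stood at 0.30, 0.28 and 0.36 in LIF and at 0.22, 0.58 and 0.40 in 2i+LIF. In Nat1-null cells the levels were 2.48, 2.16 and 2.57 in LIF and 1.77, 1.17 and 1.75 in 2i+LIF. The Nat1-null groups lay above both wild-type groups and apart from each other. With loss of Nat1, Id1 rose by 2.09 in LIF (SE 0.17, adjusted p = 2.42e-06, 4.25-fold) and by 1.16 in 2i+LIF (adjusted p = 3.89e-04, 2.24-fold). With 2i, Id1 differed by 0.09 in wild-type cells (95% interval -0.29 to 0.47) and fell by 0.84 in Nat1-null cells (adjusted p = 0.0038, 1.79-fold).

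Id2, which is also known from neural and lymphoid development, was highest in wild-type cells in LIF. It stood there at 0.99, 0.97 and 1.05, against -1.28, -1.58 and -1.25 in the same cells in 2i+LIF. Nat1-null cells had levels of -0.50, -0.07 and -0.49 in LIF and -0.91, -0.28 and -0.71 in 2i+LIF. The wild-type groups lay at the extremes and the Nat1-null groups overlapped each other between them. With 2i, Id2 fell by 2.37 in wild-type cells (SE 0.17, adjusted p = 1.84e-06, 5.18-fold), while the difference in Nat1-null cells was -0.28 (adjusted p = 0.23, 95% interval -0.66 to 0.10). With loss of Nat1, Id2 fell by 1.36 in LIF (adjusted p = 5.75e-05) and rose by 0.73 in 2i+LIF (adjusted p = 0.0062). Without Nat1-null 2i+LIF replicate 2 the 2i difference in Nat1-null cells passed (-0.46, adjusted p = 0.046).

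Id3, a close relative of Id1 in its use as a BMP target, also had the wild-type groups at the extremes, with a wide spread in Nat1-null cells. Wild-type cells had 0.76, 0.72 and 0.91 in LIF and -2.26, -1.90 and -2.16 in 2i+LIF. Nat1-null cells had -0.21, -1.68 and 0.18 in LIF and -0.10, -1.01 and 0.35 in 2i+LIF. Replicate 2 was the lowest Nat1-null array in both media, and neither Nat1-null group overlapped a wild-type group. Id3 fell with 2i by 2.90 in wild-type cells (SE 0.45, adjusted p = 3.36e-04, 7.48-fold), a difference larger in size than that of 97.2% of all genes tested. In Nat1-null cells the 2i difference was 0.32 with a 95% interval from -0.70 to 1.34. Id3 fell with loss of Nat1 by 1.37 in LIF (adjusted p = 0.022) and rose by 1.85 in 2i+LIF (adjusted p = 0.0082). Leaving out wild-type LIF replicate 3 (-1.31, adjusted p = 0.061) or Nat1-null LIF replicate 2 (-0.81, adjusted p = 0.056) ended the call on the fall in LIF. It passed without replicate 2 of both Nat1-null groups (-0.81, adjusted p = 0.0037).

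Id4, the Id gene best known from neural development, was lower in Nat1-null cells. Wild-type levels were -1.02, -1.19 and -0.95 in LIF and -1.25, -1.23 and -1.17 in 2i+LIF. The Nat1-null arrays read -1.87, -1.88 and -1.58 in LIF and -1.64, -2.03 and -1.40 in 2i+LIF. Every Nat1-null array lay below every wild-type array, and the media overlapped within each genotype. Id4 fell with loss of Nat1 by 0.72 in LIF (SE 0.15, adjusted p = 0.0016, 1.65-fold) and by 0.47 in 2i+LIF (adjusted p = 0.026). The second of these calls was lost in 5 of the 12 fits that left out 1 array (without any one of the wild-type 2i+LIF arrays or without Nat1-null 2i+LIF replicate 1 or 2), where the difference ran from -0.50 to -0.30 with adjusted p from 0.051 to 0.073. The 2i difference was -0.16 in wild-type cells (95% interval -0.50 to 0.17) and 0.09 in Nat1-null cells (-0.25 to 0.42).

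Counted by comparison, 2i in wild-type cells changed 4 of the 7 tested genes (Bmp7 and Smad6 higher, Id2 and Id3 lower), where 62% of all 24771 genes passed (34.8% higher, 27.2% lower). Loss of Nat1 in LIF changed all 7 tested genes (Id1, Bmp4 and Smad6 higher, Id2, Id3, Id4 and Bmp7 lower), against 66.6% of all genes (33.7% higher, 32.9% lower). In 2i+LIF loss of Nat1 changed 6 (all but Bmp7, and only Id4 lower), against 43.4% (20.8% higher, 22.6% lower). 2i in Nat1-null cells changed 4 (Bmp7 and Smad6 higher, Id1 and Bmp4 lower), against 37% (21.3% higher, 15.7% lower). With shares of this size among all genes, the first of these counts is close to the background, and 7 genes are too few for the others to be set apart from it. The median difference of the 7 genes was -0.06, -0.72, 1.16 and 0.09 in the same order, beside 0.06, 0.02, -0.01 and 0.05 over all genes. Without replicate 2 of both Nat1-null groups the counts were 4, 7, 6 and 4. The comparisons share arrays (both 2i and genotype comparisons in LIF rest on the same wild-type LIF arrays), so their values are set side by side and not as independent results.

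The interaction of genotype and medium, which is the 2i difference in Nat1-null cells minus that in wild-type cells, passed for 3 of the 7 genes, against 49.4% of all genes (23.5% higher, 25.9% lower). It was 2.09 for Id2 (SE 0.24, adjusted p = 7.39e-05), 3.22 for Id3 (SE 0.64, adjusted p = 0.0023) and -0.92 for Id1 (SE 0.24, adjusted p = 0.0095). The 3 Id genes thus differed between genotypes in their change with 2i, with Id2 and Id3 falling in wild-type cells alone by the tests above and Id1 in Nat1-null cells alone. For Bmp7 the interaction was 0.23 (95% interval -0.48 to 0.95), for Smad6 0.30 (-0.13 to 0.72), for Id4 0.25 (-0.22 to 0.72) and for Bmp4 -0.58 (-1.16 to 0.01, adjusted p = 0.093). Without Nat1-null LIF replicate 2, those of Bmp4 (-0.77, adjusted p = 0.014), Bmp7 (0.54, adjusted p = 0.023) and Smad6 (0.45, adjusted p = 0.013) also passed, which made 6 of 7.

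**Figure D2:**
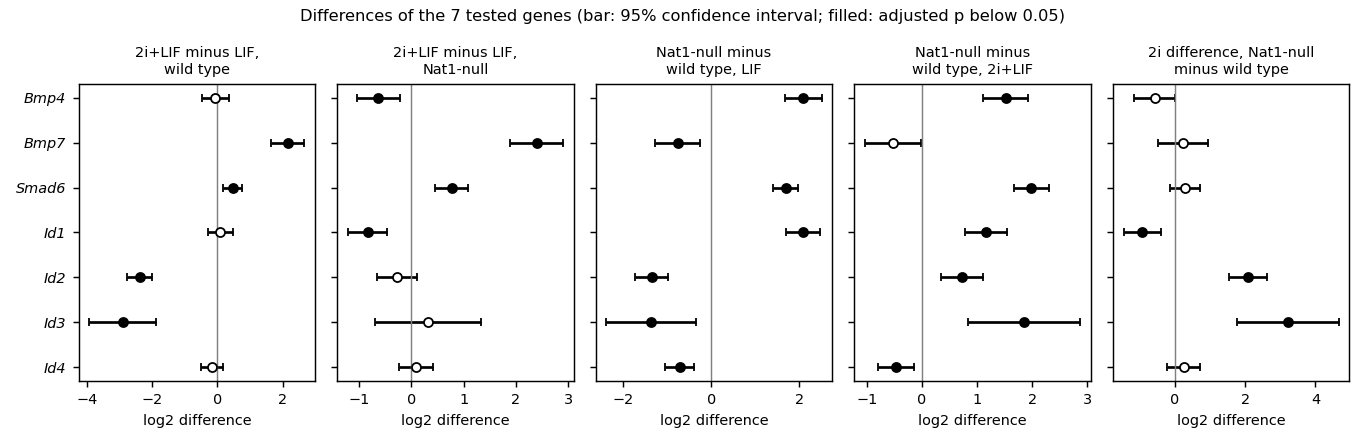
Log2 differences (horizontal axis, with its own range in each panel) of the 7 tested genes for the 4 comparisons and their interaction. Points are differences of group means, bars their 95% confidence intervals in the limma fit and filled points adjusted p below 0.05; Bmp4, Smad6 and Id1 are higher with loss of Nat1 in both media, and Id2 and Id3 change direction between media.

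In the order of the 4 group levels, 13 of the 21 pairs of neighbouring groups differed in the fit, and 11 to 15 when 1 array was left out. Between 37% and 69.3% of all genes passed in the pairwise comparisons of groups. For Id1 the order was Nat1-null in LIF, Nat1-null in 2i+LIF and then both wild-type groups, which did not differ beyond their spread. Bmp4 had the same first groups, again followed by wild-type groups that did not separate. For Smad6 all neighbours separated, from Nat1-null in 2i+LIF at the top to wild type in LIF. For Bmp7 the 2i+LIF groups came first, and the step between them missed the threshold (adjusted p = 0.084) although their arrays did not overlap. For Id2 and Id3 wild type in LIF came first and wild type in 2i+LIF last, with the Nat1-null groups between them not separated, and for Id3 the step from wild type in LIF to Nat1-null in 2i+LIF missed the threshold as well (-1.05, adjusted p = 0.063). Across media, the Nat1-null LIF group differed from the wild-type 2i+LIF group in all 7 tested genes (5 higher, Id4 and Bmp7 lower), against 51.7% of all genes (21.8% higher, 29.9% lower). The Nat1-null 2i+LIF group differed from the wild-type LIF group in 6 genes (Id1, Bmp4, Bmp7 and Smad6 higher, Id2 and Id4 lower), against 69.3% (37% higher, 32.3% lower).

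Summed over each list, markers of other cell types were also highest in wild-type cells in LIF, where Id2 and Id3 were highest. The summed level (linear signal in multiples of the array's 75th percentile) of the 14 fibroblast and feeder genes was 283 to 305 there, against 9.12 to 9.58 once 2i was added. In Nat1-null cells it was 9.11 to 9.85 in LIF and 10.1 to 12.5 in 2i+LIF. Of the 13 tested, 10 fell and 1 rose with 2i in wild-type cells, and 11 fell with loss of Nat1 in LIF. Lum was not above background on any array of any group, and Dcn and Postn on none of the Nat1-null arrays. The 10 trophoblast markers summed to 178 to 203, 25.3 to 27.8, 12.3 to 14.2 and 35.3 to 36.8 in the same order of groups, the 10 neural progenitor markers to 18.8 to 20.7, 4.37 to 4.86, 4.91 to 5.40 and 3.36 to 3.56, and the 10 primitive endoderm markers to 252 to 288, 99.2 to 101, 169 to 187 and 185 to 218. Gene by gene these 3 lists moved both ways. With 2i in wild-type cells 3 rose and 6 fell of 9 tested trophoblast markers. The split was 1 and 7 of 8 neural markers and 2 and 6 of 10 endoderm markers. With loss of Nat1 in LIF it was 2 and 7, 2 and 5, and 3 and 5. Of all genes, 34.8% rose and 27.2% fell in the first comparison, and 33.7% and 32.9% in the second. Cdx2 and Elf5 were below background outside wild-type cells in LIF. The part of these cell types in the Id2 and Id3 results was not tested, and in bulk RNA fewer cells of a type and less RNA per cell cannot be told apart.

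Over the 12 arrays, the profile most like that of Id1 among 15382 other named genes was Mief1 (Pearson r = 0.992), followed by Bmp4 (0.990). For Bmp4 itself Rnf19b (0.997) and Hmces (0.996) came first, and Id1 was in place 9. Nearest to Id2 were Selenom (0.994) and Psmb8 (0.988), and to Id3 Kirrel (0.987) and Nfyc (0.981). Id2 and Id3 correlated at 0.748. Haus1 (0.953) was nearest to Id4, Gusb (0.996) to Bmp7 and, over the 11 arrays with a value, Rasd1 (0.992) to Smad6. These values are descriptions over arrays that fall into 4 groups and share slides within a group.

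The rest of the pathway was counted in 86 genes listed by role, of which 66 were tested. 2i in wild-type cells changed 51 of them (28 higher, 23 lower), loss of Nat1 in LIF 47 (23 higher, 24 lower), loss of Nat1 in 2i+LIF 35 (23 higher, 12 lower) and 2i in Nat1-null cells 25 (16 higher, 9 lower). Without scaling between arrays the split turned to 8 higher and 42 lower for 2i in wild-type cells and to 9 higher and 18 lower for 2i in Nat1-null cells. With loss of Nat1 it was then 19 higher and 31 lower in LIF and 32 higher and 9 lower in 2i+LIF. The shares of all genes given above were 62%, 66.6%, 43.4% and 37%, and the median differences of the 66 genes were 0.11, -0.09, 0.12 and 0.06. The interaction of genotype and medium passed for 47 of the 66 (27 higher, 20 lower), against 49.4% of all genes (23.5% higher, 25.9% lower). Without scaling between arrays its split was 35 higher and 10 lower.

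Of the 9 other ligands tested, 6 fell and none rose with 2i in wild-type cells, and 6 fell and none rose with loss of Nat1 in LIF, with median differences of -0.78 and -1.28. Both counts include Bmp3, whose probe passed the filter on dim probes through wild-type cells in LIF alone. Of all genes, 27.2% and 32.9% passed as lower in these comparisons. The fibroblast and trophoblast marker sums given above were also lower in them, and the part of those cell types in the ligand counts was not tested. Bmp8b, a ligand known from germ cell induction, fell by 2.67 (adjusted p = 2.20e-04) and 2.71 (adjusted p = 1.59e-04), with 2 of 3 arrays of the lower group well above background in each case. Bmp2, the closest relative of Bmp4, was at least 8.81-fold lower with 2i in wild-type cells, where it was not well above background (adjusted p = 0.018). With loss of Nat1 in 2i+LIF, 1 ligand rose (Bmp8a, by 0.30) and 2 passed as lower (Bmp3 and Bmp10), neither of them well above background on any Nat1-null array, and Bmp3 was below background in wild-type cells in 2i+LIF as well.

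The receptors were split. Bmpr1a, the main type I receptor of BMP4, differed by -0.07, 0.03 and 0.04 in comparisons where it did not pass, and rose by 0.15 with loss of Nat1 in 2i+LIF (adjusted p = 0.042). Bmpr1b, a second type I receptor, was at least 6.47-fold lower with loss of Nat1 in LIF, with no Nat1-null array well above background. With 2i in wild-type cells it fell by 2.81, and 1 of 3 arrays was well above background there. Its probe passed the filter on dim probes through wild-type cells in LIF alone. Both falls are from that group and are given as descriptions. Acvrl1, an endothelial type I receptor, rose by 2.20 with loss of Nat1 in LIF (adjusted p = 8.63e-06) and by 0.96 with 2i in wild-type cells. The type II receptor Bmpr2 fell by 0.91 with loss of Nat1 in LIF (adjusted p = 0.0016) and rose by 0.74 with 2i in Nat1-null cells (adjusted p = 0.012), and the type I receptor Acvr1 did likewise (-0.66 and 1.06). Acvr2b rose by 1.00 with loss of Nat1 in LIF and by 0.64 with 2i in wild-type cells, and the co-receptor Eng rose by 1.10 with loss of Nat1 in 2i+LIF. In all, of 11 tested receptors and co-receptors 4 rose and 4 fell with loss of Nat1 in LIF (33.7% and 32.9% of all genes). With 2i in wild-type cells 6 rose and 2 fell (34.8% and 27.2% of all genes).

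Of the other SMADs, Smad7, the other inhibitory SMAD, rose in 3 of the 4 comparisons. Its wild-type level was 0.75 ± 0.07 (SD, n = 3) in LIF and 2.13 ± 0.14 in 2i+LIF, and its Nat1-null level was 3.54 ± 0.23 in LIF and 3.42 ± 0.17 in 2i+LIF. It rose by 1.39 with 2i in wild-type cells (adjusted p = 9.83e-06), by 2.79 with loss of Nat1 in LIF (SE 0.13, adjusted p = 4.69e-08, 6.94-fold) and by 1.28 in 2i+LIF (adjusted p = 3.75e-05), and the 2i difference in Nat1-null cells was -0.12 (adjusted p = 0.48). Smad1 fell by 0.75 with loss of Nat1 in 2i+LIF (adjusted p = 3.00e-05) and rose by 0.43 with 2i in wild-type cells. Smad5 rose with loss of Nat1 by 0.51 in LIF and 0.17 in 2i+LIF, and the shared partner Smad4 by 0.41 and 0.28. Smad2 and Smad3, which carry Nodal and activin signals, fell with loss of Nat1 in LIF by 0.49 and 0.84. They also fell with 2i in wild-type cells, by 0.61 and 0.45. In 2i+LIF Smad3 instead rose with loss of Nat1 by 0.64 (adjusted p = 6.65e-04), and Smad2 did not pass (0.15, adjusted p = 0.28). Smad3 rose by 1.02 with 2i in Nat1-null cells (adjusted p = 4.83e-05).

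Among the secreted antagonists, Chrdl2, related to chordin, was at least 2.36-fold lower with 2i in wild-type cells and at least 2.32-fold lower with loss of Nat1 in LIF. It was well above background in wild-type cells in LIF alone and passed the filter on dim probes only through that group. Both falls are from that group and are given as descriptions. Bmper, a chordin-like modulator, fell by 2.14 with 2i in wild-type cells and also passed as lower in the other 3 comparisons, with 1 of 6 Nat1-null arrays well above background. Crim1, a membrane protein that tethers BMPs, fell by 2.74 with loss of Nat1 in LIF. Fstl1 fell with loss of Nat1 by 2.39 in LIF (adjusted p = 9.95e-09) and 1.94 in 2i+LIF, while the related Fstl3 rose by 1.87 in 2i+LIF. Nog and Chrd, the classical antagonists noggin and chordin, differed by 0.08 and -0.07 with loss of Nat1 in LIF and did not pass. Of 14 tested antagonists and modulators 3 rose and 6 fell with loss of Nat1 in LIF (33.7% and 32.9% of all genes). In 2i+LIF 3 rose and 4 fell (20.8% and 22.6% of all genes).

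Of 10 intracellular negative regulators, Smad7 among them, 6 rose and 2 fell with 2i in wild-type cells (34.8% and 27.2% of all genes). With loss of Nat1 in LIF 6 rose and 1 fell (33.7% and 32.9% of all genes). Ski, a SMAD corepressor, rose by 1.10 and 1.52, and Tob1, an antiproliferative protein that binds SMADs, by 1.54 and 0.91. In Nat1-null cells Ski fell by 0.84 with 2i.

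Other BMP targets (a list that also holds Smad7, Bmper and Nog) moved in both directions. Of 15 tested, 6 rose and 4 fell with loss of Nat1 in LIF (33.7% and 32.9% of all genes). In 2i+LIF again 6 rose and 4 fell (20.8% and 22.6% of all genes). Tbx3, a naive-state transcription factor, rose by 2.60 with 2i in wild-type cells (adjusted p = 7.72e-08) and by 3.27 with loss of Nat1 in LIF (adjusted p = 8.87e-09). Gata2, a haematopoietic and trophoblast factor, rose with loss of Nat1 by 2.23 in LIF and 2.97 in 2i+LIF (adjusted p = 4.56e-07). Dusp9, a phosphatase that links BMP4 to low ERK activity in stem cells, rose by 1.31 with 2i in wild-type cells and fell by 1.42 with loss of Nat1 in 2i+LIF. Hand1, which is also in the trophoblast list, was at least 16.6-fold lower with 2i in wild-type cells. Its probe passed the filter on dim probes through wild-type cells in LIF alone, so this fall from that group is given as a description. Msx2, a homeobox target, rose by 2.08 and Zfp423, a SMAD cofactor, fell by 2.19 with 2i in Nat1-null cells.

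Of the partners and effectors of Id proteins, 5 were tested, and 1 passed (higher) with loss of Nat1 in 2i+LIF, against 43.4% of all genes. All 5 passed with loss of Nat1 in LIF (3 higher, 2 lower), against 66.6% of all genes. Hes1, a helix-loop-helix repressor that Id proteins can bind, rose by 2.42 there (adjusted p = 4.46e-09) and by 2.32 with 2i in wild-type cells. The E proteins were split. Tcf3 rose by 0.48 with loss of Nat1 in LIF and by 0.49 with 2i in wild-type cells. Tcf12 fell in the same comparisons, by 0.35 (adjusted p = 0.011) and 0.30 (adjusted p = 0.022). Tcf4 rose by 0.78 with loss of Nat1 in LIF and fell by 0.75 with 2i in Nat1-null cells (adjusted p = 0.0020).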

How the data were processed

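Total RNA was labelled with Cy3 and measured on 12 Agilent arrays. Per the file headers, the deposited intensity values are background-subtracted signals from Agilent Feature Extraction 10.7.3.1. The log2 values that the authors deposited in a series table are the same signals shifted to a common 75th percentile, and correlated at r = 1 with the recomputed values on every array. The largest difference for a spot of these genes was 0.0226.

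Here log2 processed signals were used without control spots and without spots marked as outliers, of which the members had 1 of 108. Replicate spots were averaged per probe, and each array was set to its 75th percentile. Probes needed a value on at least 2 arrays of each group, a rule set after the marked Smad6 spot was seen, and 1 group whose 3 arrays were all well above background. This left 33859 probes, and the brightest probe of each gene gave 24771 genes, 15583 with a symbol. A probe that passed through 1 group alone was let in by its signal there, which favours calls of a fall from that group. The counts of falls include such probes, as do the shares of all genes. Symbols came from RefSeq accessions (GRCm38.p6), which matched 27656 of 55681 probes. limma 3.58.1 (R 4.3.3) fitted 4 group means without a covariate. Two-sided p-values were adjusted by Benjamini-Hochberg across the 24771 genes, separately for each comparison, and a gene was called at adjusted p below 0.05. A fold against a group with no array above background was computed against the lowest signal well above background on each of its arrays, or the probe's own signal where higher, and is written "at least". The fits were tested on simulated data. Tables were made with pandas 2.3.3 and numpy 2.4.6 in Python 3.11.15, and figures with matplotlib 3.10.9.

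The members and all lists were chosen with earlier results of these data known. All members and Eif4g2 are named, and so are called SMADs, called main receptors and, per role and comparison, called genes among the 3 largest differences without overlap of arrays. Nog, Chrd and Tcf12 were added after their values were seen. Values of 2 pathway genes are not reported here, though both stay in the fits and counts. Alternatives covered scaling, background correction, the filter, the probe of a gene, the spread model and leaving out arrays.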

Additional observations from a re-analysis of the deposited data

Results flagged for a closer look

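For 3 genes the difference with 2i was itself different between genotypes in limma's interaction test. The 2i difference in Nat1-null cells minus that in wild-type cells was 3.22 for Id3 (adjusted p = 0.0023), 2.09 for Id2 (adjusted p = 7.39e-05) and -0.92 for Id1 (adjusted p = 0.0095). The value of Id1 missed the threshold without scaling between arrays (-0.55, adjusted p = 0.057). The genotypes lay on different slides, and slide and genotype cannot be told apart.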

How the results depend on the processing

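Of 35 differences (7 genes in 4 comparisons and the interaction), 24 passed. Of these, 17 passed in the same direction under every one of the alternatives run, 7 were lost in at least 1, and 8 that had not passed did so in at least 1. Without scaling between arrays the median of all genes moved for 2i in wild-type cells from 0.06 to -0.50, for loss of Nat1 in LIF from 0.02 to -0.14, in 2i+LIF from -0.01 to 0.22, for 2i in Nat1-null cells from 0.05 to -0.14 and for the interaction from -0.03 to 0.34. The share of rises among all called genes then moved from 56.1% to 12.8%, from 50.6% to 39.1%, from 48.0% to 75.7%, from 57.5% to 22.3% and from 47.5% to 78.6%. In that setting the 2i difference in wild-type cells turned to -0.48 for Id1 (adjusted p = 0.018) and -0.10 for Smad6 (adjusted p = 0.52), Id4 (-0.73) and Bmp4 (-0.63) also passed as lower, the 2i difference of Id4 in Nat1-null cells turned to -0.11, and the fall of Id4 with loss of Nat1 in 2i+LIF was lost (-0.25, adjusted p = 0.18). With the row of the slide as a term, added after seeing the data, the 2i differences in Nat1-null cells were -0.43 for Id3 and -0.11 for Id4. Leaving out 1 array also turned uncalled signs, with ranges of -0.0011 to 0.18 for Id1 with 2i in wild-type cells (lowest without wild-type 2i+LIF replicate 2) and, for 2i in Nat1-null cells, of -0.24 to 0.70 for Id3 (lowest without Nat1-null LIF replicate 2) and -0.061 to 0.26 for Id4 (lowest without Nat1-null 2i+LIF replicate 3). A fit of the groups of a comparison alone called 2 of the 7 genes and 15 pathway genes for 2i in Nat1-null cells (4 and 25 with all groups), where fewer arrays estimate the spread. For the interaction, 5 genes passed with array weights and 6 without both Nat1-null arrays numbered 2, and 3 to 6 when 1 array was left out, against 3 with all arrays; the cause was not tested. Leaving out 1 array gave 4, 6 to 7, 5 to 7 and 3 to 4 genes in the 4 comparisons. The main fit did not treat same-numbered replicates as pairs. Residuals correlated above 0.1 in 1 of 18 same-numbered pairs (0.294, replicate 2 of the Nat1-null groups). Nat1-null replicate 2 was the lowest array in both media for Id1, Id3, Id4 and Bmp4. It was the highest in both for Id2 and Bmp7, and Smad6 showed neither. Whether the Nat1-null samples numbered 2 share an origin was not tested. With the replicate number as a block the counts were 4, 7, 6, 4 and 3 and no call on a member changed. The slide could not be fitted as a block. Signal over background limited Bambi and the second Bmp4 probe.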
